A study of Homo sapiens with 6 samples.

Results

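Ligands are the molecules a cell releases, or carries on its surface, to act on the receptors of other cells or on its own. The genes described here are those annotated in the deposited table with the Gene Ontology term "regulation of receptor activity" and expressed in a line of human immortalized cardiomyocytes in which CIRBP, a cold-inducible RNA-binding protein, was depleted by siRNA. Of 433 genes that carry the term, 153 reached 10 or more estimated counts in at least 3 of the 6 libraries. From these, 15 were set aside by name (from a list of 21 cytokine, growth factor and hormone genes such as IL6, CXCL8 and VEGFA), which left 138 members among the 58884 genes of the table. The members were thus chosen by annotation, by estimated counts in all 6 libraries without regard to treatment, and by the names set aside. The term and the names were chosen with earlier results of these data known. The choice is therefore not shown to be independent of how the members changed.

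RNA-seq had been carried out on total RNA from 3 libraries of cells given a negative control siRNA (NC_1, NC_2 and NC_3) and 3 libraries of cells given siRNA against CIRBP (SiCIRBP_1, SiCIRBP_2 and SiCIRBP_3). The labels name the line T0519, whereas the study's text gives AC16 for its transcriptome experiment, and both are human immortalized ventricular cardiomyocytes. All 6 libraries came from 1 line with no drug named in the labels. Nothing states whether the libraries of a group came from separate cultures. The p-values below thus rest on the spread between the libraries of each fit, which may be technical. The study left NC_1 and SiCIRBP_2 out of its own test because they stood apart in correlations and PCA, and the test reported first uses the other 4 libraries, with the left-out pair given beside them. With 2 libraries per group, the spread in that test is estimated largely from the trend across genes. It does not include the spread of the left-out pair.

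Most members fitted the description of secreted ligands, although not all did. A further term for growth factor, cytokine, hormone or chemokine activity together with one for the extracellular region or space was held by 111 of the 138 members. Growth factor activity was annotated for 70 members (50.7%), cytokine activity for 57 (41.3%), hormone activity for 20 (14.5%) and chemokine activity for 5 (3.62%). An extracellular term was found for 123 members (89.1%), against 8.38% of the genes tested. Ligand terms without an extracellular term were held by 7 members, and 12 members had an extracellular term only, among them the urokinase PLAU and 4 Wnt proteins. The remaining 8 had neither, among them the intracellular enzymes PDE4D, HDAC6 and PRKCD and the receptor accessory protein MRAP2. These were kept, because the annotation term chose the members and not their location.

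Growth factors and cytokines act at low concentration through a few families of receptors. FGF, PDGF and IGF ligands bind receptor tyrosine kinases, TGF-beta and BMP ligands bind serine/threonine kinase receptors, neurotrophins bind Trk kinases and the p75 receptor NGFR, and most interleukins and chemokines bind receptors without a kinase of their own or G protein-coupled receptors. Matricellular proteins of the CCN family sit in the extracellular matrix and modify how such ligands reach their receptors. In the heart, ligands exchanged between cardiomyocytes, fibroblasts and vessels are known for their part in growth, fibrosis and the response to injury.

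CIRBP, the targeted gene, was lower in each SiCIRBP library than in each NC library. Its normalized count (CPM, counts scaled to the library total by TMM) was between 85.8 and 91.0 in the NC libraries and was 54.8, 24.3 and 46.3 in SiCIRBP_1, SiCIRBP_2 and SiCIRBP_3, with a log2 fold change of -0.81 (SE 0.11, adjusted p = 0.00828, edgeR) over the 4 libraries. Totals lay between 25726259 and 29919566 estimated counts per library. Of 16 cardiomyocyte markers only ACTN2, NKX2-5 and TNNI3 exceeded 1 TPM in any library and 6 had 0 counts in all 6, whereas 8 of 10 fibroblast markers exceeded 1 TPM. The summed TPM of the cardiomyocyte markers was 20.4 to 26.7 in the NC libraries and 15.5, 18.9 and 16.2 in SiCIRBP_1, SiCIRBP_2 and SiCIRBP_3, and that of the fibroblast markers was 942 to 1108 against 1057, 562 and 1657. Endothelial markers summed to 12.8 to 16.1 TPM in the NC libraries and to 9.51, 9.68 and 15.8 in the SiCIRBP libraries, and leukocyte markers to 9.39 to 11.2 against 11.4, 13.1 and 14.0. The libraries also differed in interferon-stimulated genes, 28 of which summed to between 918 and 951 TPM in the NC libraries but to 437 in SiCIRBP_1, 9097 in SiCIRBP_2 and 1802 in SiCIRBP_3. What part these differences had in the results below was not tested.

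The stretch of 250 bases upstream of the transcription start is shown for 1 member that fell and 1 that rose, CCN2, a known target of TEAD factors, and OSGIN1, both chosen after matches to the motifs searched had been seen. The sequences are those of RefSeq (GRCh38.p14), written 5′ to 3′ on the strand of the gene, with the motif found in capitals. The first is chr6:131951373-131951622 on the minus strand and the second chr16:83952990-83953239 on the plus strand, which precedes the RefSeq start of OSGIN1 and lies inside the longer span that GENCODE gives the gene.
CCN2 upstream: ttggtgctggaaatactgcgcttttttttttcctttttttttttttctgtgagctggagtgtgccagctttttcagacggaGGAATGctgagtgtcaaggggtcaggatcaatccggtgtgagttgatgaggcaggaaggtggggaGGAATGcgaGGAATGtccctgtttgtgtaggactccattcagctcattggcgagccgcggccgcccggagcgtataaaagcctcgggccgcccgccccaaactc
OSGIN1 upstream: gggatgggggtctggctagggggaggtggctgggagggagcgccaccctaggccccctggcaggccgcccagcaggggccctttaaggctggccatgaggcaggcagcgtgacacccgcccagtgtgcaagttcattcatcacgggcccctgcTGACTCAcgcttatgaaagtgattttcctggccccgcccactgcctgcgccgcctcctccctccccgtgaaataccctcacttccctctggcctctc
The CCN2 window holds GGAATG, the core read by TEAD factors, 3 times, at 169, 104 and 95 bases before the start, and the OSGIN1 window holds 1 TGACTCA, which has the letters TGANTCA of an AP-1 site, at 97 bases before the start. GGAATG was found in 11.9% and TGANTCA in 6.59% of 34788 windows of this length upstream of genes, on either strand. Windows were given for 103 of the 138 members and for 7 of the 15 members called below, 166 windows in all, of which 9.64% held GGAATG and 5.42% held TGANTCA. Of the other called members with a window, PDE4D, which fell, has several windows. It held each of these motifs in at least 1 of them, and most of them held neither. BDNF, JAG1, FGF14 and FGF22 held none of the motifs searched. Of the other motifs searched, the cAMP response element TGACGTCA was found in 1.81% of the members' windows and 1.64% of all, and the interferon-stimulated response element (GAAA, any pair of bases, GAAA) in 1.2% and 3.02%. Each printed window held matches of only 1 of the motifs searched. These are matches of letters and no measurement of binding.

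Over the 4 libraries, 6 members were upregulated in the SiCIRBP group and 9 were downregulated, at a 2-fold change or more and an adjusted p under 0.05 (edgeR's quasi-likelihood test, Benjamini-Hochberg adjustment over 15421 genes). Upregulated were FGF14, FGF22, IGF2, CCN3, OSGIN1 and TG, and downregulated were PDGFB, CXCL16, CCN2, JAG1, IL15, BDNF, STC1, SCG2 and PDE4D. These are 4.35% and 6.52% of the 138 members, where the same calls were made for 1.82% and 1.8% of the genes tested. Together the 15 were 10.9% of the members, against 3.62% of all genes. At an adjusted p under 0.05 and any size of change, 14 members rose (10.1%, against 9.62% of all genes) and 18 fell (13.0%, against 9.76%). The median log2 fold change was -0.075 over the members and -0.002 over all genes tested, and with all 6 libraries it was 0.058 and 0.008. Between these fits 28 of 137 members changed sign, of which SCG2 was a called one. As these are cells in bulk, fewer cells of a type and less RNA per cell cannot be told apart.

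**Figure D1:**
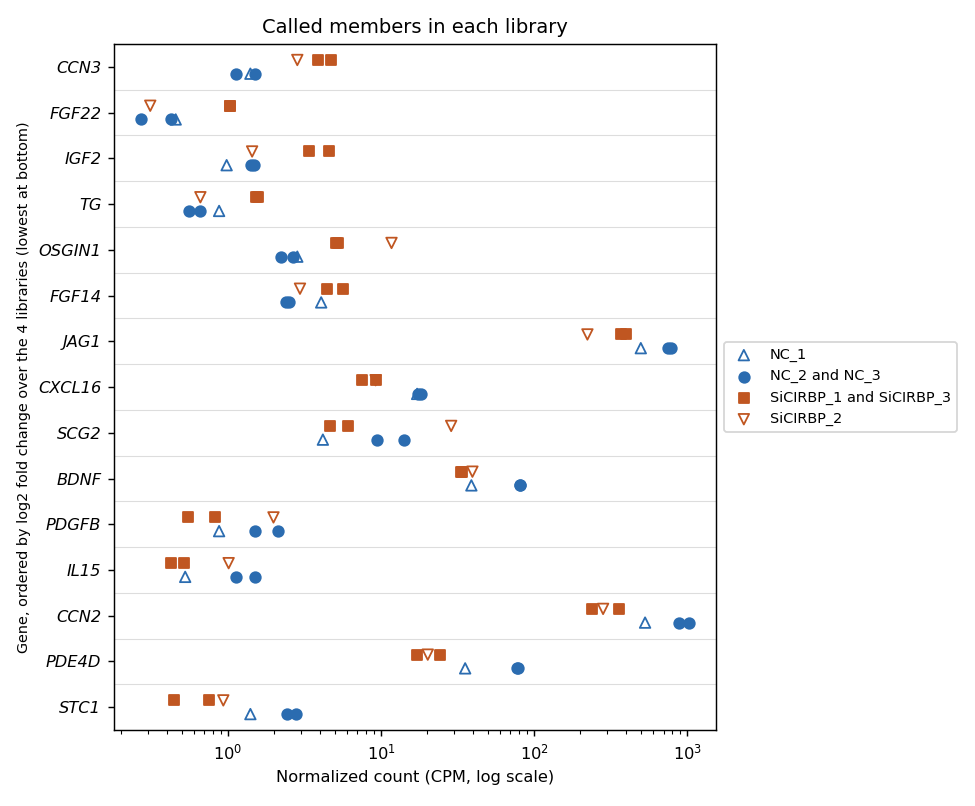
Normalized count (CPM, log scale) of the 15 called members in each library, with the genes ordered by log2 fold change. Filled symbols are the 4 libraries tested and open triangles are NC_1 and SiCIRBP_2. The filled symbols of NC and SiCIRBP lie apart in every row, while the open ones lie between or beyond them in several, and SCG2 in SiCIRBP_2 (28.7 CPM) is above all other libraries.

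The number of calls depended on the libraries in the fit. With all 6 libraries, edgeR called 0 of 137 members and 0 of 15217 genes (0.0%), although 38 members (27.7%) and 3603 genes (23.7%) had an unadjusted p under 0.05. DESeq2 over all 6 libraries called 3 members upregulated (1.14% of all genes were) and 5 downregulated (1.13% of all genes). These were CCN3, IGF2 and OSGIN1, and CCN2, CXCL16, JAG1, PDE4D and STC1. Over the 4 libraries, DESeq2 called 5 members upregulated and 7 downregulated (1.29% and 1.64% of all genes), including IL32, which edgeR did not call. The number of upregulated members in the edgeR fit was 0 without NC_2 or NC_3 (0.297% and 0.151% of all genes were called up), 12 without SiCIRBP_1 (3.88% of all genes) and 5 without SiCIRBP_3 (2.36%). Downregulated members numbered 4 and 3 without NC_2 and NC_3 (0.459% and 0.233% of all genes) and 9 and 10 without SiCIRBP_1 and SiCIRBP_3 (3.45% and 3.5%), so that calls over all genes moved too. CCN2, BDNF and PDE4D were called in each of these fits, in which 1 group holds a lone library and the spread comes from the other group.

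The deposited TPM gave smaller changes for most upregulated members. On the log2(TPM + 0.1) scale over the 4 libraries, CCN3 differed by 0.96, OSGIN1 by 0.82, FGF14 by 0.74 and TG by 0.38, all under 2-fold, and FGF22 by 1.15 and IGF2 by 1.48. Among the downregulated members, JAG1 was at -0.99 and the other 8 stayed beyond 2-fold. The differences depended on the constant added. On the log2(TPM + 1) scale every upregulated member was under 2-fold, from 0.20 for TG to 0.73 for IGF2. So were JAG1 (-0.99), SCG2 (-0.98), STC1 (-0.62), IL15 (-0.56) and PDGFB (-0.48), while BDNF, CCN2, CXCL16 and PDE4D stayed beyond it.

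The matricellular CCN proteins moved in opposite directions. CCN2, the connective tissue growth factor (chr6:131948176-131951373), is the fifth most abundant member and was measured at 530.1, 1026 and 879 CPM in NC_1, NC_2 and NC_3 and at 357, 282 and 237 in SiCIRBP_1, SiCIRBP_2 and SiCIRBP_3. Each SiCIRBP library was below each NC library, with NC_1 in the gap between. CCN2 fell 3.21-fold over the 4 libraries (log2 fold change -1.68, SE 0.19, adjusted p = 0.00605, edgeR) and its log2 fold change over all 6 was -1.48 (SE 0.26, adjusted p = 0.0869).

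CCN3, a relative of CCN2 (chr8:119416306-119424353), was scarce, with 1.40, 1.13 and 1.51 CPM in the NC libraries and 4.69, 2.84 and 3.88 in SiCIRBP_1, SiCIRBP_2 and SiCIRBP_3. The groups did not overlap in any library, and the counts behind these values ran from 29 to 137. CCN3 rose 3.23-fold over the 4 libraries (log2 fold change 1.69, SE 0.27, adjusted p = 0.0128, edgeR). Over the 6 libraries its log2 fold change was 1.5 (SE 0.28, adjusted p = 0.0869).

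JAG1, a membrane-bound ligand of Notch receptors (chr20:10637684-10673999), stood at 497, 753 and 778 CPM in NC_1, NC_2 and NC_3 and at 397, 223 and 368 in SiCIRBP_1, SiCIRBP_2 and SiCIRBP_3. All 3 SiCIRBP libraries were below all NC libraries and SiCIRBP_2 was lowest, so that the pair outside the test showed the drop as well. It fell by 1.00 on the log2 scale over the 4 libraries (SE 0.08, adjusted p = 0.00289, edgeR), which is at the 2-fold limit of the call. Over all 6 libraries the log2 fold change of JAG1 was -1.04 (SE 0.25, adjusted p = 0.101, edgeR). JAG2 was at -0.26 and was not called. Among the receptors of JAG1, NOTCH1 had a log2 fold change of -0.73 (adjusted p = 0.0212), NOTCH2 of -0.64 (adjusted p = 0.0303) and NOTCH3 of -0.12 (adjusted p = 0.718), none of which reached 2-fold. Of the 11 members in the list of heparin-binding and matricellular growth factors, which holds CCN2, CCN3 and JAG1, 1 was upregulated, 2 were downregulated and 8 were neither.

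BDNF was the called neurotrophic factor, and a receptor for neurotrophins fell beside it. BDNF (chr11:27654893-27722058), a neurotrophin that acts through TrkB and NGFR, had 80.7 and 80.6 CPM in NC_2 and NC_3 and 33.6 and 33.2 in SiCIRBP_1 and SiCIRBP_3. The remaining pair did not differ in the same way, with 38.9 CPM in NC_1 and 39.5 in SiCIRBP_2, both near the SiCIRBP level. BDNF fell 2.41-fold over the 4 libraries (log2 fold change -1.27, SE 0.09, adjusted p = 0.00262, edgeR), and over all 6 its log2 fold change was -0.91 (SE 0.27, adjusted p = 0.121). NGFR was measured at 1.72, 2.14 and 2.56 CPM in the NC libraries and at 0.479, 1.95 and 0.819 in SiCIRBP_1, SiCIRBP_2 and SiCIRBP_3, with SiCIRBP_2 inside the NC range. Its log2 fold change was -1.85 over the 4 libraries (SE 0.37, adjusted p = 0.0203, edgeR) and -0.99 over all 6 (adjusted p = 0.251), and NTRK2, the gene of TrkB, did not pass the expression filter. Among other neurotrophic members, NENF rose short of 2-fold (log2 fold change 0.75, adjusted p = 0.0166), and NRTN (0.29) and GDNF (0.41) did not pass the test.

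Among 7 FGF genes, the upregulated ones were both of low abundance. FGF14 (chr13:101710804-102402457) belongs to the FGFs that stay inside the cell and modulate sodium channels, and was at 4.07, 2.52 and 2.39 CPM in NC_1, NC_2 and NC_3 and at 4.45, 2.96 and 5.66 in SiCIRBP_1, SiCIRBP_2 and SiCIRBP_3. NC_1 exceeded SiCIRBP_2, and the groups overlapped once that pair was included. FGF14 rose 2.06-fold over the 4 libraries (log2 fold change 1.04, SE 0.23, adjusted p = 0.0276, edgeR), and its log2 fold change over all 6 was 0.54 (SE 0.32, adjusted p = 0.329). In the annotation, 31.6% of its exon bases are shared with ITGBL1 on the opposite strand, and the counting is not stated to use strand, so that reads of these overlapping genes may not be told apart.

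FGF22 (chr19:639879-644371), a secreted FGF of the nervous system, had 0.456, 0.272 and 0.426 CPM in the NC libraries and 1.03, 0.311 and 1.03 in SiCIRBP_1, SiCIRBP_2 and SiCIRBP_3. These stand for 7 to 30 counts, and SiCIRBP_2 lay within the NC range. FGF22 rose 2.90-fold over the 4 libraries (log2 fold change 1.53, SE 0.42, adjusted p = 0.0479, edgeR), just inside the threshold, and its log2 fold change over all 6 was 1.03 (adjusted p = 0.259). FGF1, FGF2, FGF5, FGF11 and FGF18 were not called, and FGF2 was at -0.39 (adjusted p = 0.0549 in the same test) and at 0.18 over all 6 libraries. Of the FGF receptors, FGFR1 fell short of 2-fold (log2 fold change -0.58, adjusted p = 0.0082), while FGFR3 and FGFR4 were at 0.03 and 0.23. FGFR2, at 0.456 to 0.505 CPM in the NC libraries and 0.071 to 0.171 in the SiCIRBP libraries, had a log2 fold change of -1.94 (SE 0.60) that missed the threshold over the 4 libraries (adjusted p = 0.0639, edgeR) and one of -2.09 over all 6 (adjusted p = 0.10).

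IGF2 (chr11:2129112-2149603), an imprinted growth factor that binds IGF1R, was the only member of the insulin, IGF and HGF list. It had 0.981, 1.48 and 1.41 CPM in NC_1, NC_2 and NC_3 and 3.39, 1.44 and 4.56 in SiCIRBP_1, SiCIRBP_2 and SiCIRBP_3. SiCIRBP_2 was thus at the NC level, and NC_1 was the lowest library. IGF2 rose 2.75-fold over the 4 libraries (log2 fold change 1.46, SE 0.27, adjusted p = 0.0173, edgeR), and its log2 fold change over all 6 was 1.28 (adjusted p = 0.143). A second annotated gene of the same name shares 73.7% of its exon bases and the read-through gene INS-IGF2 shares 20.9%, both on the same strand, so that its reads may be assigned with less confidence. The receptors IGF1R (log2 fold change -0.54, adjusted p = 0.00828, edgeR) and IGF2R (-0.46, adjusted p = 0.0158) moved the other way and stayed short of 2-fold. INSR, the insulin receptor, was at -0.82 (adjusted p = 0.0744, edgeR) and was not called.

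Over the 4 libraries the A and B chains of PDGF went in opposite directions, and in the left-out pair each went the other way. PDGFB (chr22:39223359-39244751), whose dimer binds both PDGF receptors, was at 0.876, 1.51 and 2.13 CPM in the NC libraries and at 0.548, 1.98 and 0.819 in SiCIRBP_1, SiCIRBP_2 and SiCIRBP_3. NC_1 was at the level of SiCIRBP_3 and SiCIRBP_2 at that of NC_3, so that the groups overlapped over 6 libraries. PDGFB fell 2.67-fold over the 4 libraries (log2 fold change -1.42, SE 0.38, adjusted p = 0.0439, edgeR), and over all 6 its log2 fold change was -0.44 (SE 0.53, adjusted p = 0.623).

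PDGFA, which binds PDGFRA, was measured at 24.2, 20.8 and 22.5 CPM in the NC libraries and at 39.3, 10.9 and 35.5 in SiCIRBP_1, SiCIRBP_2 and SiCIRBP_3. SiCIRBP_2 was below all NC libraries and the other SiCIRBP libraries were above them. Over the 4 libraries PDGFA rose 1.73-fold (log2 fold change 0.79, SE 0.11, adjusted p = 0.0098, edgeR). PDGFRA was lower in all 3 SiCIRBP libraries than in all NC libraries (log2 fold change -0.38, adjusted p = 0.0297), and PDGFRB was at -0.23 (adjusted p = 0.489). VEGFB, VEGFC, PGF, PDGFC and PDGFD lay between -0.18 and 0.34 and were not called.

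Of 14 interleukins, interferons and related cytokines, IL15 alone was called. IL15 (chr4:141636599-141733987), which sustains natural killer and memory T cells, was at 0.526, 1.13 and 1.51 CPM in the NC libraries and at 0.514, 1.01 and 0.427 in SiCIRBP_1, SiCIRBP_2 and SiCIRBP_3. The counts were 12 to 46, and NC_1 was close to SiCIRBP_1. IL15 fell 2.79-fold over the 4 libraries (log2 fold change -1.48, SE 0.39, adjusted p = 0.0423, edgeR) and its log2 fold change over all 6 was -0.70 (adjusted p = 0.403).

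IL32, a proinflammatory cytokine, had the largest log2 fold change of the members without passing the edgeR test, 2.10 (SE 0.90, adjusted p = 0.144). It had 1.37, 0.349 and 0.722 CPM in NC_1, NC_2 and NC_3 and 0.548, 19.7 and 4.17 in SiCIRBP_1, SiCIRBP_2 and SiCIRBP_3. SiCIRBP_1 lay within the NC range. The order of the SiCIRBP libraries was that of their interferon-stimulated genes, and the reverse of that of their CIRBP, both given above. The part of either was not tested. The other 4 members at 2-fold or more that were not called were CNTF (log2 fold change 1.21, adjusted p = 0.0576), NRG4 (1.07, adjusted p = 0.114), PTHLH (-1.09, adjusted p = 0.222) and WNT4 (-1.04, adjusted p = 0.133).

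Chemokines were few after the rule was applied. CXCL16 (chr17:4733526-4739922), a membrane-anchored chemokine that can be shed, had 17.2, 18.3 and 17.4 CPM in the NC libraries and 7.47, 9.22 and 9.26 in SiCIRBP_1, SiCIRBP_2 and SiCIRBP_3. Both left-out libraries sat with their own group. CXCL16 fell 2.13-fold over the 4 libraries (log2 fold change -1.09, SE 0.15, adjusted p = 0.00911, edgeR), and over all 6 its log2 fold change was -1.03 (SE 0.15, adjusted p = 0.0853).

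CXCL12, the ligand of CXCR4 and the most abundant chemokine among the members per length, was at 308, 262 and 249 CPM in the NC libraries and at 439, 205 and 533 in SiCIRBP_1, SiCIRBP_2 and SiCIRBP_3. SiCIRBP_2 was the lowest of the 6 libraries. Over the 4 libraries CXCL12 rose 1.90-fold (log2 fold change 0.93, SE 0.11, adjusted p = 0.00627, edgeR), and ACKR3, its scavenging receptor, had a log2 fold change of -0.82 (adjusted p = 0.00804). CKLF was at 0.40 (adjusted p = 0.0499), and 58.7% of its exon bases belong also to the read-through gene CKLF-CMTM1. CXCL5 (-0.05) and CXCL6 (0.65) did not pass the test.

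The peptide hormone list of 17 members had no upregulated gene and the 2 downregulated genes STC1 and SCG2. STC1, stanniocalcin 1 (chr8:23841915-23854807), a glycoprotein hormone of calcium and phosphate balance, was at 1.40, 2.45 and 2.79 CPM in NC_1, NC_2 and NC_3 and at 0.445, 0.933 and 0.748 in SiCIRBP_1, SiCIRBP_2 and SiCIRBP_3. The groups did not overlap over 6 libraries, with 13 to 85 counts per library. STC1 fell 4.38-fold over the 4 libraries (log2 fold change -2.13, SE 0.36, adjusted p = 0.0139, edgeR), the lowest value of any member.

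SCG2 (chr2:223596940-223602503), a granin from which secretoneurin is cut, turned direction with the pair outside the test. It had 4.17, 9.36 and 14.0 CPM in NC_1, NC_2 and NC_3 and 6.06, 28.7 and 4.63 in SiCIRBP_1, SiCIRBP_2 and SiCIRBP_3. NC_1 was the lowest library and SiCIRBP_2 the highest. SCG2 fell 2.19-fold over the 4 libraries (log2 fold change -1.13, SE 0.25, adjusted p = 0.0259, edgeR), but over all 6 its log2 fold change was 0.51 (SE 0.71, adjusted p = 0.674). NAMPT, which acts as an NAD-synthesis enzyme inside cells and as a cytokine outside, fell short of 2-fold (log2 fold change -0.87, SE 0.10, adjusted p = 0.00605).

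**Figure D2:**
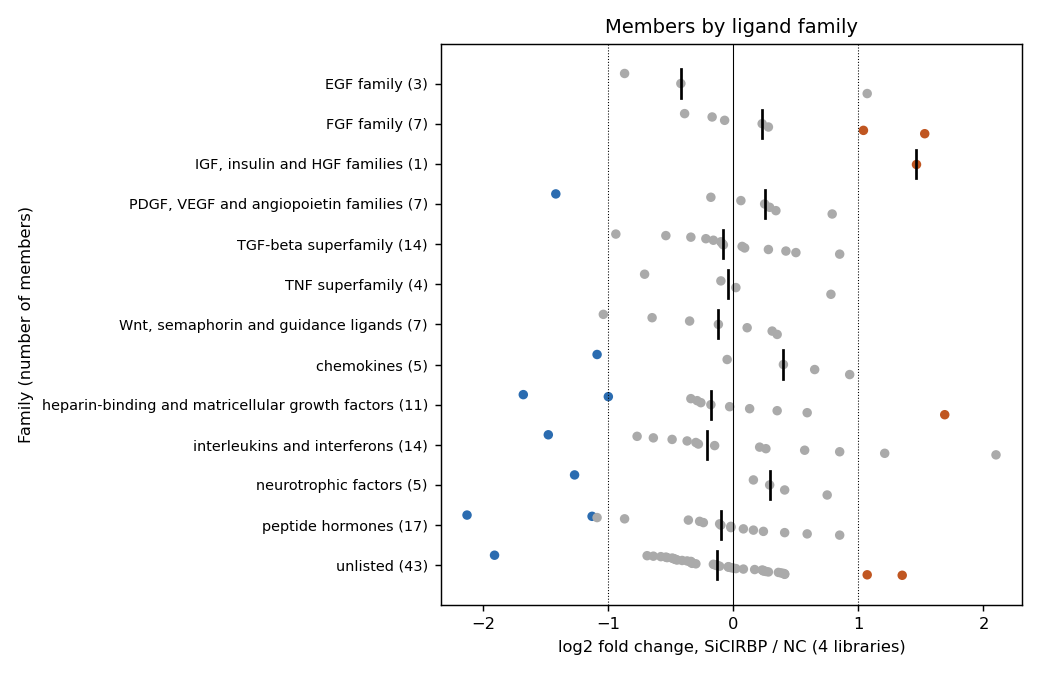
Log2 fold change of each member over the 4 libraries by ligand family, with the number of members in brackets. Black bars mark family medians, dotted lines 2-fold, and orange and blue points the 6 upregulated and 9 downregulated members. No family with more than 1 member lies wholly on one side of 0, and the medians of these 12 groups run from -0.42 to 0.40.

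The EGF, TGF-beta, TNF and Wnt lists held no called member, with median log2 fold changes of -0.42, -0.08, -0.04 and -0.12. The TGF-beta list leaves out the member named AC011462.1 in the table, whose identifier is that of TGFB1 in GENCODE and which was at 0.24 (adjusted p = 0.147, edgeR). With it the list has 15 members and the same median of -0.08. In this family INHBA, the subunit of activin A, fell short of 2-fold (log2 fold change -0.94, SE 0.14, adjusted p = 0.0114, edgeR). GDF1 was at -0.54 (adjusted p = 0.0296), but all of its exon bases lie within those of CERS1, a ceramide synthase gene and itself a member, at -0.58, so that their reads cannot be assigned apart with confidence. HBEGF, an EGF receptor ligand, was at -0.87 (adjusted p = 0.00903), and all SiCIRBP libraries, at 29.4 to 37.3 CPM, were below the NC libraries, at 38.6 to 60.0 CPM. TNFSF12, the TNF ligand TWEAK, which shares 29.4% of its exon bases with the read-through gene TNFSF12-TNFSF13, was at -0.71 (adjusted p = 0.027) while its receptor TNFRSF12A was at 0.70 (adjusted p = 0.00688). The Wnt inhibitor DKK1 was at 0.35 (adjusted p = 0.0494), and the 5 Wnt genes apart from WNT4 lay between -0.65 and 0.31 and were not called.

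Of the 43 members in no family list, 2 were upregulated and 1 was downregulated. PDE4D (chr5:58969038-60522120), a cAMP phosphodiesterase that limits beta-adrenergic signals in cardiomyocytes and is not a secreted ligand, was at 35.4, 77.7 and 77.9 CPM in NC_1, NC_2 and NC_3 and at 17.1, 20.2 and 24.3 in SiCIRBP_1, SiCIRBP_2 and SiCIRBP_3. All SiCIRBP libraries were below all NC libraries, with NC_1 between the rest of the groups. PDE4D fell 3.76-fold over the 4 libraries (log2 fold change -1.91, SE 0.17, adjusted p = 0.00392, edgeR) and its log2 fold change over all 6 was -1.63 (SE 0.30, adjusted p = 0.0869).

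OSGIN1 (chr16:83948282-83966332), a growth inhibitor induced by oxidative stress, was at 2.84, 2.21 and 2.66 CPM in the NC libraries and at 5.07, 11.7 and 5.2 in SiCIRBP_1, SiCIRBP_2 and SiCIRBP_3. The groups did not overlap, and SiCIRBP_2 stood above the rest. OSGIN1 rose 2.10-fold over the 4 libraries (log2 fold change 1.07, SE 0.22, adjusted p = 0.022, edgeR) and its log2 fold change over all 6 was 1.51 (SE 0.36, adjusted p = 0.10). Of the exon bases of OSGIN1, 13.9% are shared with AC009119.2 on the same strand. The related gene OSGIN2 was at -0.54 (adjusted p = 0.0421) over the 4 libraries and at -0.03 over all 6.

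TG, the gene of thyroglobulin (chr8:132866958-133134903), had 25, 17 and 17 counts in NC_1, NC_2 and NC_3 and 46, 17 and 43 in SiCIRBP_1, SiCIRBP_2 and SiCIRBP_3. SiCIRBP_2 was at the level of the NC libraries. It rose 2.55-fold over the 4 libraries (log2 fold change 1.35, SE 0.34, adjusted p = 0.0385, edgeR), and its log2 fold change over all 6 was 0.85 (adjusted p = 0.25). The deposited TPM values of TG did not separate in this way, with 1.80 and 0.64 in NC_2 and NC_3 and 1.90 and 1.09 in SiCIRBP_1 and SiCIRBP_3.

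The members were spread over a wide range of levels. Mean TPM over the 6 libraries ran from 0.142 for INHBB to 2289 for MIF, with a median of 6.35, against 10.6 for all genes tested. At least 1 TPM was reached by 108 members and at least 100 TPM by 15. Of the 15 called members 6 had a mean below 1 TPM, and 9 had under 100 counts in at least 1 library. At the edge of the count rule, ADA2, FGF18, INHBB and THBS4 reached 10 counts in exactly 3 libraries, with 3 to 38 counts per library. INHBE, LTA, NPPC and UCN2 reached 10 counts in exactly 2 and stayed outside, with 0 to 53 counts.

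**Figure D3:**
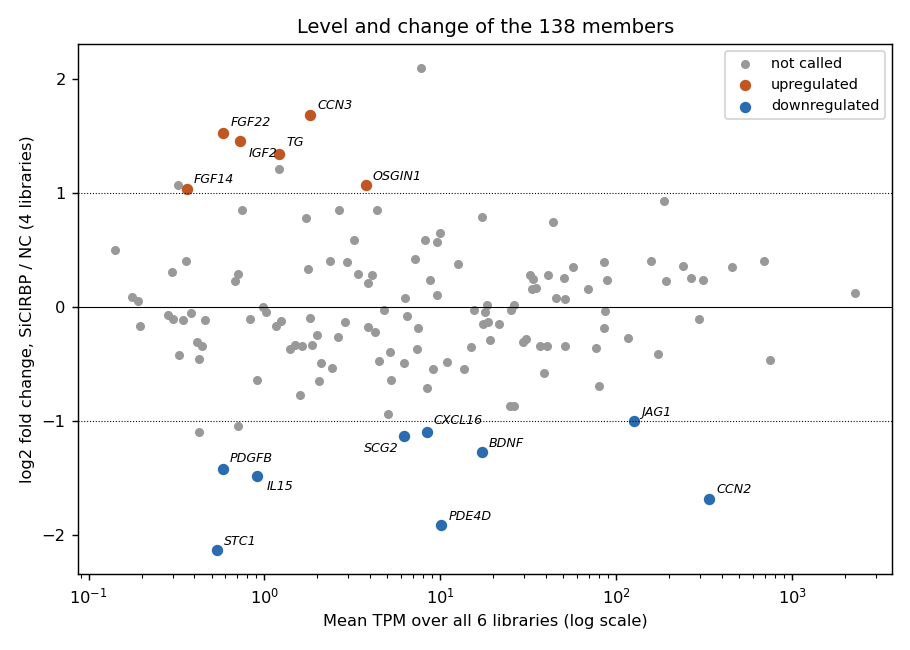
Log2 fold change over the 4 libraries against mean TPM over all 6 libraries (log scale) for the 138 members, with called members coloured and dotted lines at 2-fold. CCN2 and JAG1 are the called members above 100 TPM, and the grey point at a log2 fold change of 2.10 is IL32.

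The 8 most abundant members by mean TPM were MIF, PLAU, HMGB1, HDGF, CCN2, GRN, CD70 and TIMP1. MIF, macrophage migration inhibitory factor, was at 2198, 2096 and 2001 TPM in the NC libraries and at 1985, 3236 and 2215 in SiCIRBP_1, SiCIRBP_2 and SiCIRBP_3. SiCIRBP_2 was above all others, and the log2 fold change was 0.13 over the 4 libraries (SE 0.08, adjusted p = 0.283, edgeR). MIF shares 61.9% of its exon bases with the antisense gene MIF-AS1. PLAU, the urokinase plasminogen activator, was at 821, 973 and 926 TPM in the NC libraries and at 553, 450.3 and 741 in SiCIRBP_1, SiCIRBP_2 and SiCIRBP_3. All SiCIRBP libraries were below all NC libraries, with a log2 fold change of -0.46 that missed the threshold (SE 0.14, adjusted p = 0.0593, edgeR), and 31.1% of its exon bases are shared with C10orf55 on the opposite strand.

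HMGB1, a chromatin protein released by injured cells, was at 726, 602 and 562 TPM in the NC libraries and at 723, 793 and 767 in SiCIRBP_1, SiCIRBP_2 and SiCIRBP_3. NC_1 overlapped the SiCIRBP group on this scale, although not in CPM, where the log2 fold change was 0.41 (SE 0.09, adjusted p = 0.0257, edgeR). HDGF, hepatoma-derived growth factor, was at 454, 424 and 410.2 TPM in the NC libraries and at 533, 439 and 456 in SiCIRBP_1, SiCIRBP_2 and SiCIRBP_3. Here too the groups overlapped in TPM and not in CPM, with a log2 fold change of 0.35 (SE 0.09, adjusted p = 0.0405, edgeR).

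GRN (progranulin), CD70 (the TNF-family ligand of CD27) and TIMP1 (an inhibitor of metalloproteinases) did not pass the test, with log2 fold changes of 0.24, -0.10 and 0.26 and adjusted p-values of 0.0626, 0.52 and 0.163 in edgeR. Their TPM values ran from 256 to 342 for GRN, from 247 to 344 for CD70 and from 240.2 to 313 for TIMP1 over the 6 libraries, and the groups overlapped for each. The direction of CD70 was 0.08 over all 6 libraries. Among these 8 genes CCN2 was thus the called one, and HMGB1 and HDGF rose by less than 2-fold.

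**Figure D4:**
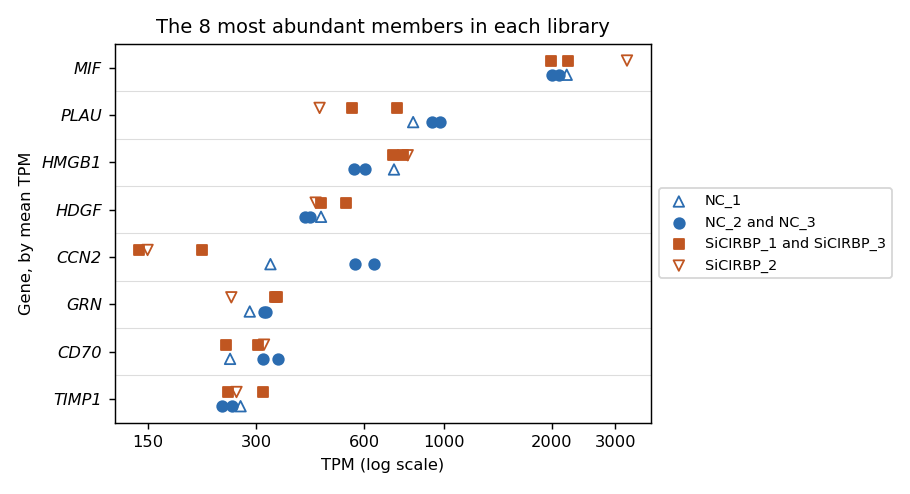
TPM (log scale) of the 8 most abundant members in each library, with the 4 tested libraries as filled symbols and NC_1 and SiCIRBP_2 open. For CCN2 and PLAU all SiCIRBP libraries lie to the left of all NC libraries, whereas for the other 6 genes the groups overlap on this scale.

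With the left-out pair included, 17 of 137 members (12.4%) had all 3 SiCIRBP libraries above all 3 NC libraries, where 16.2% of all genes did. All 3 were below for 21 members (15.3%, against 16.6% of all genes). In the deposited TPM these were 8 members above (8.61% of all genes) and 23 below (22.6% of all genes). Of the 15 called members, 2 of the 6 upregulated (CCN3 and OSGIN1) and 5 of the 9 downregulated (CCN2, JAG1, CXCL16, STC1 and PDE4D) were so separated. The same share among all called genes is not given here, so that these counts cannot be read as particular to the members. FGF5 was the one further member at 2-fold or more over 6 libraries and with separate groups, at 9.32, 9.05 and 9.12 CPM in the NC libraries and 12.7, 35.0 and 9.33 in SiCIRBP_1, SiCIRBP_2 and SiCIRBP_3. Its log2 fold change was 1.05 over all 6 libraries (SE 0.45, adjusted p = 0.204, edgeR) and 0.28 over the 4 (adjusted p = 0.315), and SiCIRBP_3 differed little from the NC libraries. An exact permutation test of 3 against 3 libraries cannot give a two-sided p below 0.1, which CCN2, CCN3 and the other separated genes reached.

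NC_1 and SiCIRBP_2 can be compared on their own, as a pair that had no part in the calls but has no replicate. The difference SiCIRBP_2 minus NC_1, in log2(CPM + 0.1), had the direction of the 4-library call for 3 of the 6 upregulated members (50%, where 69.4% of all upregulated genes did) and for 5 of the 9 downregulated members (55.6%, against 70.9%). CCN3 (0.97), IGF2 (0.51) and OSGIN1 (2.01) were higher in SiCIRBP_2, whereas FGF14 (-0.45), FGF22 (-0.43) and TG (-0.36) were lower. CCN2 (-0.91), JAG1 (-1.16), CXCL16 (-0.89), STC1 (-0.54) and PDE4D (-0.81) were lower in SiCIRBP_2. BDNF (0.02) was level, and PDGFB (1.09), IL15 (0.83) and SCG2 (2.75) were higher. NC_1 lay nearer to the mean of SiCIRBP_1 and SiCIRBP_3 than to that of NC_2 and NC_3 for 6 of the 9 downregulated members (66.7%, against 42.4% of all downregulated genes) and for 1 of the 6 upregulated (16.7%, against 47.3%).

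**Figure D5:**
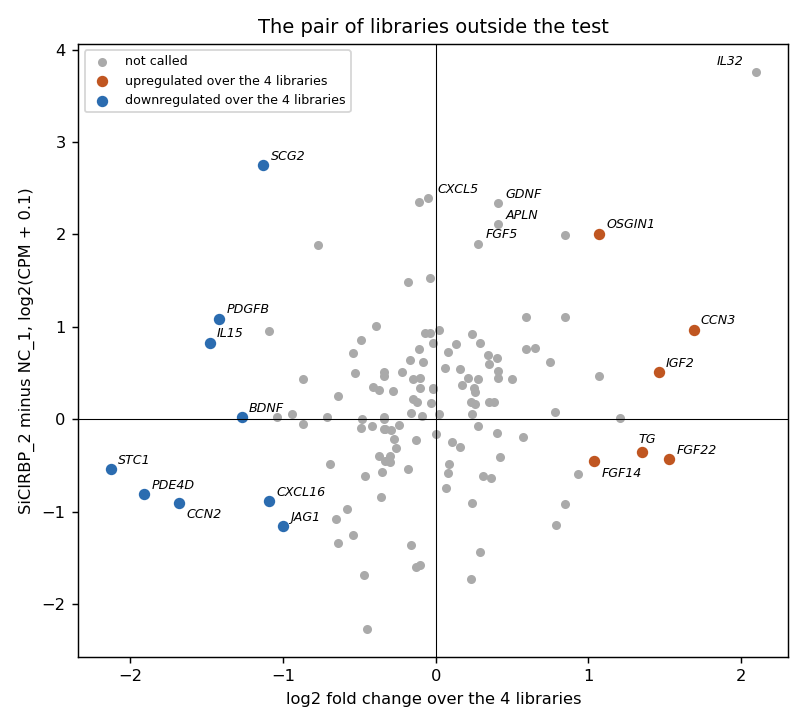
Difference between the libraries outside the test (SiCIRBP_2 minus NC_1, log2(CPM + 0.1)) against the log2 fold change over the 4 libraries for the 138 members. Of the called members, 3 of 6 upregulated (orange) lie above 0 and 5 of 9 downregulated (blue) lie below 0, and SCG2 and IL32 have the highest named values at 2.75 and 3.76.

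SiCIRBP_2 set several members apart by itself. Among 124 members with at least 1 CPM in some library, 9 were at least 2-fold higher in SiCIRBP_2 than in every other library (ADA2, APLN, CXCL5, FGF5, GDNF, IL32, OSGIN1, SCG2 and TYMP), and 2 were at least 2-fold lower (CSPG5 and FGF11). ADA2, CXCL5 and GDNF reached 1 CPM in SiCIRBP_2 alone, so that the same high value also admitted them to this count. ADA2 passed the rule of 10 counts only with SiCIRBP_2 as well. None of the members stood apart in this way in any other library. Over all 14056 genes that passed the same limit of 1 CPM, 2.19% were so raised and 2.6% so lowered in SiCIRBP_2. GDNF, a neurotrophic factor that signals through RET, had 3.77 CPM in SiCIRBP_2 and 0.328 to 0.666 in the other 5 libraries. APLN, the gene of the heart-active peptide apelin, had 17.4 CPM there and 2.33 to 4.63 elsewhere. TYMP, thymidine phosphorylase, had 14.5 CPM there and 4.38 to 6.53 elsewhere. SiCIRBP_2 was also the library with the lowest CIRBP and the highest summed interferon-stimulated genes given above, and the part of either in these values was not tested.

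Receptors for such ligands were read from a list of 108 genes, of which 79 passed the expression filter. None was upregulated over the 4 libraries in edgeR (1.82% of all genes were) or in DESeq2 (1.29% of all genes). In edgeR 4 were downregulated (5.06%, where 1.8% of all genes were). At an unadjusted p under 0.05 in edgeR, 4 rose and 26 fell, with shares over all genes not given. At any size of change, 18 receptors fell (22.8%, against 9.76% of all genes) and 2 rose (2.53%, against 9.62%), and the median log2 fold change of the 79 was -0.18. Over all 6 libraries, 20 receptors (25.3%, against 16.6% of all genes) had all SiCIRBP values below all NC values and 5 (6.33%, against 16.2%) had them above. The list shares 2 genes with the members.

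Besides NGFR, the downregulated receptors were ACVR1, NRP2 and NPR3. ACVR1 (chr2:157736444-157875862), a type I receptor for BMP ligands, was at 74.8, 112 and 116 CPM in the NC libraries and at 56.7, 28.9 and 47.7 in SiCIRBP_1, SiCIRBP_2 and SiCIRBP_3. All SiCIRBP libraries were below all NC libraries, and the log2 fold change was -1.13 (SE 0.11, adjusted p = 0.00465, edgeR). NRP2 (chr2:205681990-205798133), a co-receptor for semaphorins and VEGF-C, was at 217, 274 and 314 CPM in the NC libraries and at 105, 72.3 and 177 in SiCIRBP_1, SiCIRBP_2 and SiCIRBP_3. These groups did not overlap either, with a log2 fold change of -1.06 (SE 0.23, adjusted p = 0.0245, edgeR).

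NPR3 (chr5:32689070-32791724), which clears natriuretic peptides, was at 32.5, 38.8 and 40.4 CPM in the NC libraries and at 18.5, 19.95 and 16.5 in SiCIRBP_1, SiCIRBP_2 and SiCIRBP_3. Both left-out libraries sat with their group. NPR3 had a log2 fold change of -1.18 over the 4 libraries (SE 0.11, adjusted p = 0.00476, edgeR) and of -1.02 over all 6 (SE 0.15, adjusted p = 0.0853, edgeR). ACVR1 and NRP2, both at -1.19 over all 6 libraries, likewise missed the edgeR threshold there (adjusted p of 0.0975 and 0.106), whereas DESeq2 over the same libraries gave adjusted p-values of 0.000909 and 0.00298.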

How the data were processed

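RNA-seq values of 6 libraries, grouped by the labels into NC (3) and SiCIRBP (3), were analysed. The authors deposited estimated counts per gene, which are not always whole, and TPM values. Per the labels, fastp, HISAT and RSEM were used with hg38, and versions are not given in the sources used here. Columns of the authors' own comparisons (fold changes and p-values) were not used, nor was their second table of such values. The Gene Ontology terms are those of the deposited table.

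Counts were rounded before testing in edgeR 4.0.16 under R 4.3.3 (TMM, filterByExpr, quasi-likelihood test, Benjamini-Hochberg adjustment over all genes). A call needed an adjusted p-value below 0.05 and a log2 fold change of 1 or more in either direction. SE values are |log2 fold change| over the root of F. NC_2, NC_3, SiCIRBP_1 and SiCIRBP_3, the libraries of the study's own test, entered the fit. CPM are TMM-scaled. With 2 libraries per group the spread is estimated largely from the trend across genes. On simulated counts with 200 genes changed by a log2 of 1.5, edgeR recovered 99.5% of them (15337 genes, the same 4 libraries). All were drawn from genes with a mean above 50 counts, so that scarcer members were not covered. The simulation gave every gene the same dispersion and held no outlying library, so that it does not measure the power in these data. With all 6 libraries it recovered 100%, where the fit of the real counts called 0 of 15217 genes.

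The members, the gene lists (12 ligand lists, receptors, interferon-stimulated genes and cell type markers) and the tests were chosen with earlier results of these data known. Named were the called members and receptors, members at 2-fold over 6 libraries whose groups did not overlap, and the 8 most abundant members. Other genes were named after their values were seen. Gene locations and exon overlaps are from GENCODE 29 (GRCh38), where all 138 members were found, and upstream sequences are from RefSeq (GRCh38.p14). Alternatives were all 6 libraries, the replicate number as a block, leave-one-out fits, no low-count filter and a minimum of 10 counts in every library. RLE scaling and DESeq2 1.42.0 were also run. The deposited TPM was used for the comparison of groups without overlap and for differences of named members on log2(TPM + 0.1) and log2(TPM + 1). The exact permutation test of a single gene was run in scipy 1.17.1. The values of 1 member are not reported here.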

Additional observations from a re-analysis of the deposited data

How the results depend on the processing

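With all 6 libraries, edgeR called 0 members in either direction and 0 receptors, and DESeq2 called 3 members up and 5 down. Leaving out 1 of the 4 libraries gave 0 to 12 upregulated members, 3 to 10 downregulated members and 1 to 7 downregulated receptors, and leaving out 1 of the 6 gave 0 to 2, 0 to 4 and 0 to 2. Without NC_2, 11 of the 15 calls were lost, and without NC_3, 12. Without SiCIRBP_1 and SiCIRBP_3, 1 and 3 calls were lost. In each of these fits the lone library is assumed to vary like the other group, and the cause of the unequal losses was not tested. The fit of all 6 libraries with no filter on low counts, added after seeing the data, called 3 members up and 5 down. Shares over all genes are not given for this fit or for those with 1 of the 6 left out. These counts therefore show how the calls depend on the fit and are no result about the members. In the deposited TPM, 8 members rather than 17 had all SiCIRBP above all NC libraries, and 23 rather than 21 below. CIRBP missed the threshold in edgeR over all 6 libraries (-1.07, adjusted p = 0.103) but passed it in DESeq2 (-1.07, adjusted p = 0.00323) and in edgeR with no low-count filter (-1.08, adjusted p = 0.00775). Its log2 fold change was -0.94 to -0.70 with 1 of the 4 libraries left out and -1.31 to -0.80 with 1 of the 6 (-1.08, -1.09 and -1.04 without NC_1, NC_2 and NC_3).

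Replicate numbers run from 1 to 3 in both groups, but same-numbered libraries did not deviate together (correlations of -0.118, 0.006 and -0.026), and the numbers were not taken to pair them. With the replicate number as a block over all 6 libraries, edgeR called 0 members, 0 receptors and 1 gene of 15217 (0.00657%), with CIRBP at -1.14. The 4 libraries share only 1 number between groups, so that no block could be fitted there.

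Of the named members run under every alternative, SCG2 and CD70 changed direction. SCG2 was at 0.51 over all 6 libraries, 0.52 in DESeq2, 0.49 with no filter, 0.23 with the block and 0.16 to 0.95 with 1 of the 6 left out (0.86 without SiCIRBP_1, 0.93 without SiCIRBP_3, and below 0 without SiCIRBP_2). CD70 was at 0.08 over all 6 libraries, in DESeq2 and with the block, at 0.07 with no filter, at 0.08 to 0.19 with 1 of the 6 left out where it turned (0.09 without NC_2), and between -0.24 and 0.01 with 1 of the 4 left out, above 0 without SiCIRBP_1. The cause was not tested. RLE size factors, and at least 10 counts in every library, left 6 members up and 8 down, with shares over all genes not given for these fits. In both, JAG1 came just short of 2-fold and was no longer called.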
